A study of Mus musculus with 8 samples.

Results

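The Nodal and Lefty signalling genes considered here are 10 protein-coding genes of mouse embryonic stem cells: the ligand Nodal, its secreted antagonists Lefty1 and Lefty2, the co-receptor Tdgf1, the receptors Acvr1b, Acvr2a and Acvr2b, the effectors Smad2 and Smad3, and the transcription partner Foxh1. Of the authors' 12594 differential regions, 7 belonged to these genes, where a region belongs to a gene when its midpoint lies in the RefSeq gene span extended by 20 kb at both ends. Hydroxymethylated DNA was recovered by CMS-IP, in which bisulfite turns 5-hydroxymethylcytosine (5hmC) into cytosine 5-methylenesulphonate and an antibody pulls down the fragments that carry it. All cells carried floxed alleles of Ogt (Ogt fl/fl), which encodes O-GlcNAc transferase. Ogt iKO cells had received 4-hydroxytamoxifen (4-OHT) for 6 days, and control cells had not. Each condition gave 2 CMS-IP and 2 input libraries, 8 samples in all. Cells were grown on mouse embryonic fibroblast feeders, and feeders and dead cells were removed by sorting. Sorting for YFP applied to the treated cells, per the labels' protocols, so the conditions also differed in 4-OHT exposure and in this sorting step. The driver of the recombinase was not given in the sources used here.

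What was deposited is a list of regions with higher signal and a list of regions with lower signal in Ogt iKO cells, with positions and no value per library. The depth of the 8 libraries, the size of each change and the spread between replicates are therefore unknown here, and no region below has an error or a p-value. The genes were chosen by their place in the pathway with these region lists in view, and their regions were selected on the lists' own calls and positions, so they are described with no test. The stem cell identity of the samples could not be checked against markers, since no expression or marker value was used here.

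Nodal is a ligand of the TGF-beta superfamily. It signals through type I and type II activin receptors together with the co-receptor Tdgf1 (Cripto); the receptors phosphorylate Smad2 and Smad3, which enter the nucleus with Smad4 and act on DNA with partners such as Foxh1. Lefty1 and Lefty2 are themselves targets of the pathway and block Nodal signalling outside the cell, which closes a negative feedback loop. Embryonic stem cells produce these components, and the pathway is known for its part in mesendoderm formation and left-right patterning. 5hmC is made from 5-methylcytosine by TET dioxygenases, which bind OGT.

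Of the 10 genes, 6 had at least 1 region, against 36.2% of all 21774 protein-coding genes treated the same way. Lower regions were found at 3 genes (Lefty2, Acvr1b and Smad3), with a background of 16.1% of protein-coding genes. Higher regions were found at 3 other genes (Acvr2b, Smad2 and Foxh1), with a background of 26.4%. No gene of the set had regions of both lists in this window, as 6.35% of protein-coding genes did; with 50 kb, Acvr1b had 1 of each. With 10 kb, Smad2 alone kept a higher region. Nothing is read from these shares, because the lists were used to choose the genes.

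The 4 lower and 3 higher regions are described by their place relative to the genes. Of the lower regions, 2 lay inside a gene of the set (Smad3 and Acvr1b), 1 overlapped an end of one (Lefty2) and 1 lay outside. All 3 higher regions lay outside the gene spans, within neighbouring genes. Among all protein-coding genes, 7.87% held the midpoint of a lower region within the span itself and 14.8% that of a higher region. These are shares of genes and not of regions. The share of all regions that lie inside a gene span was not computed. Lower regions made up 57.1% of the regions in these windows, against 31.9% in the windows of all protein-coding genes. The places and shares of the set rest on 7 regions, and no difference between the lists was tested.

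**Figure D1:**
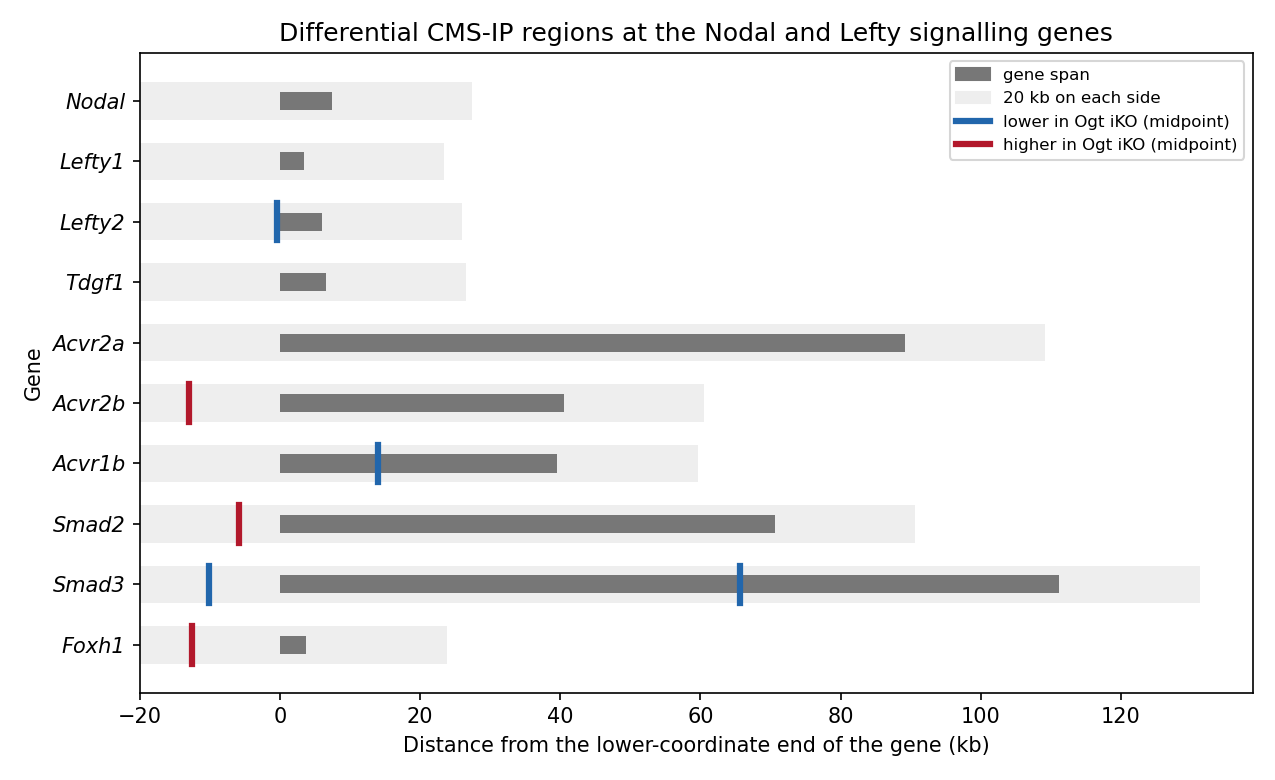
Regions at the 10 genes, 1 row a gene, by distance in kb from the lower-coordinate end of the gene span. Dark bars are gene spans, pale bars the 20 kb on each side, and vertical marks the midpoints of the 4 lower and 3 higher regions, with mark widths not to scale; the 3 higher marks all fall on the pale parts, and 4 genes have no mark.

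Among the ligand and its antagonists, Lefty2 carried the widest region of the set. This lower region ran over 5017 bp at chromosome 1, 180890213 to 180895229 (mm10), and ranked 5 by width among the 4016 lower regions. It was 15.7 times as wide as the median lower region. Of its length, 2122 bp lay inside Lefty2 (180893108 to 180899107), covering 35.4% of the gene, and 2895 bp lay beyond the lower-coordinate end. The midpoint stood 387 bp outside that end. An end of the span lay inside a lower region in 53 protein-coding genes, 0.243% of them, and inside a higher region in 0.542%. For a lower region of 2 kb or more this was so in 3 genes, Lefty2 among them, although 55 lower regions reached that width. The region was singled out beforehand for its width and its place at the gene end. Its rank and these shares therefore only describe it. The gene table has no strand or exons for Lefty2, so the end is named by coordinate, and exons and introns were not separated.

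Lefty1, at 180935022 to 180938401 on the same chromosome, had no region in its extended span. The genes are separated by 35.9 kb. The nearest region to Lefty1 was the wide lower region of Lefty2, with a gap of 39.8 kb. On the other side, the nearest was a lower region of 309 bp with a gap of 48.2 kb (180986595 to 180986903), which fell in no annotated gene. Within 100 kb of the interval from Lefty2 to Lefty1 there were 2 lower and 2 higher regions. The higher regions measured 766 bp, in the histone gene H3f3a (180806035 to 180806800), and 402 bp, in the epoxide hydrolase gene Ephx1 (180994687 to 180995088). The neighbouring regions of either list lay 83.4 kb before the wide region and 91.4 kb after it. Within 500 kb of Lefty2 there were 7 higher and 4 lower regions, the wide one included. The medians over all protein-coding genes were 4 higher and 2 lower. Whether Lefty1 differed between conditions cannot be read from the lack of a region, because which sequence was tested and at what depth is unknown.

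**Figure D2:**
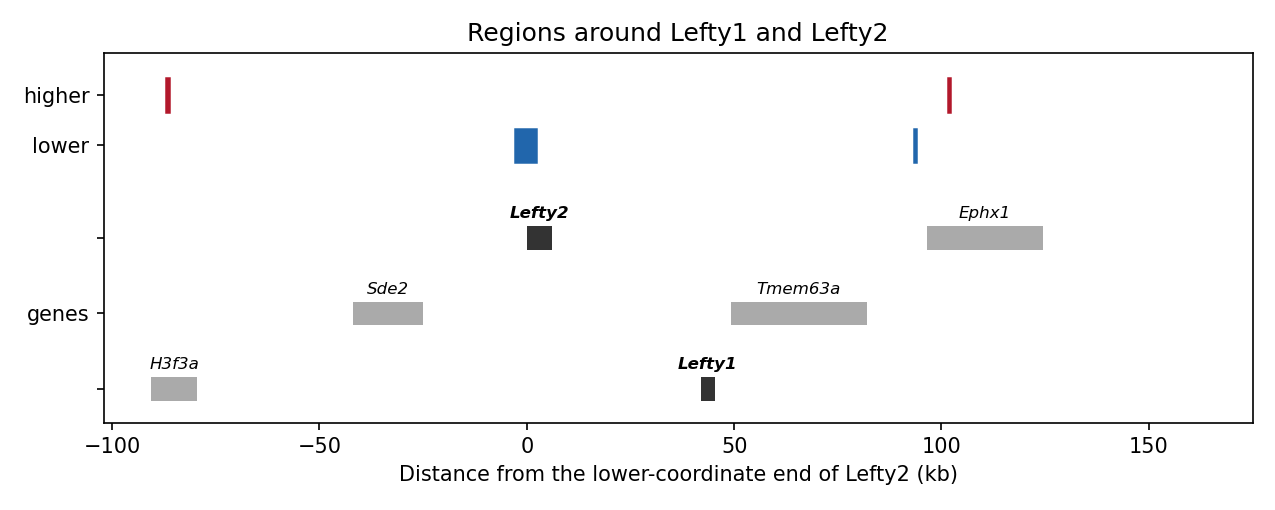
Regions of both lists within 100 kb (upper tracks) and some of the protein-coding genes (lower tracks, staggered) around Lefty1 and Lefty2, to scale apart from a thin outline on each region, by distance in kb from the lower-coordinate end of Lefty2. The 5017 bp lower region spans that end, and no region lies over Lefty1.

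Nodal, at chromosome 10, 61417972 to 61425338, was the gene farthest from any region. The nearest was a higher region of 311 bp (61629954 to 61630264) with a gap of 205 kb, and the nearest lower region had a gap of 503 kb. The median gap to the nearest region of either list was 41.9 kb over all protein-coding genes, and 15.0% of them were farther from one than Nodal. Within 500 kb of the gene there were 3 higher and no lower regions.

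Tdgf1, on chromosome 9 at 110939608 to 110946158, also had no region. A higher region of 764 bp (110912209 to 110912972) came closest, with its midpoint 27.0 kb beyond the span. This was the region nearest to the 20 kb limit from outside, whereas the farthest one admitted from inside stood 13.0 kb from Acvr2b. The nearest lower region to Tdgf1 had a gap of 187 kb.

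The promoters of these genes are shown because no region of either list reached one of the 6 promoters in the RefSeq table (GRCm38.p6, the assembly of mm10) that belong to the set: Nodal, Tdgf1, Acvr2a, Acvr2b, Acvr1b and Smad3. Lefty1, Lefty2, Smad2 and Foxh1 had no promoter there and could not be checked. This leaves out Lefty2, where an end of the gene lies inside the wide lower region. Whether that end is the start of transcription is unknown here. Each promoter sequence runs from 250 bases before to 50 bases after the start of transcription. Among all 32851 promoters of the table, 0.186% overlapped a lower region and 0.32% a higher region, so a lack of overlap is common to most genes. Nodal and Tdgf1, without a region in the extended span, and Acvr1b and Smad3, with a lower region inside the gene, are printed 5′ to 3′ on the gene's strand with CpG dinucleotides, the main substrate of methylation, in capitals. They lie at chr10:61417722-61418021 (plus strand), chr9:110946109-110946408 (minus), chr15:101173822-101174121 (plus) and chr9:63757945-63758244 (minus).
Nodal: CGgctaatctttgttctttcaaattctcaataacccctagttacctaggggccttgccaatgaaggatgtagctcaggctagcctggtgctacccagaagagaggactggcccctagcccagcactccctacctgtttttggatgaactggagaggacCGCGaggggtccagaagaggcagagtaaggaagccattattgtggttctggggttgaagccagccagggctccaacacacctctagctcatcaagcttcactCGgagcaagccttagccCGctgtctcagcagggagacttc
Tdgf1: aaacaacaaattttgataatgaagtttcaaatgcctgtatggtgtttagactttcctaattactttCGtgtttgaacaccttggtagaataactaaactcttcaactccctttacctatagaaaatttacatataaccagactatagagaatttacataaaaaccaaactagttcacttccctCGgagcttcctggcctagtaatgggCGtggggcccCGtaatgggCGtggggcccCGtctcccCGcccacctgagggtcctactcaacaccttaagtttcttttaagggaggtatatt
Acvr1b: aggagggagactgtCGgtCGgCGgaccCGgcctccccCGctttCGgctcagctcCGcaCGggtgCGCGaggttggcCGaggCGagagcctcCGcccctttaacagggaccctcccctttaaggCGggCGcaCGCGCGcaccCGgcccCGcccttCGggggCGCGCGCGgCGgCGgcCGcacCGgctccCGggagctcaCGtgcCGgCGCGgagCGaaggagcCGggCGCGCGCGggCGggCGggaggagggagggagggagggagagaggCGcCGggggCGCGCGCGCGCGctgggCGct
Smad3: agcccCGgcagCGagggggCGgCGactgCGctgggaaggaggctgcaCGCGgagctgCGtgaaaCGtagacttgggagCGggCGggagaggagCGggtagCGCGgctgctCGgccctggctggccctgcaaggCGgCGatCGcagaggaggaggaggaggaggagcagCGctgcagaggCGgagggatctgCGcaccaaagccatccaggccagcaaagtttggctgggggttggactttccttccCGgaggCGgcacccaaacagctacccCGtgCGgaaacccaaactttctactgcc

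The first pair shows fewer capitals than the second. The Nodal promoter held 5 CpG in 300 bases and that of Tdgf1 held 7, whereas the median was 13 over promoters of protein-coding genes and 7 over all promoters. Smad3 held 25 CpG and Acvr1b 51. The type II receptors, not printed, were CpG-rich as well, at 27 CpG for Acvr2b and 54 for Acvr2a. Among these 6, the genes without a region held 5, 7 and 54 CpG and those with one held 25, 27 and 51. The Foxh1 motif AATNNACA, searched on both strands, matched 2 times in the Tdgf1 promoter and in none of the other 5, and 12.2% of all promoters held it. The Smad motif CAGAC, on both strands, matched 1 time each in Tdgf1, Acvr2a and Acvr2b and in none of the other 3, with 49.6% of all promoters holding it. Such matches describe the letters in these windows and are not evidence of binding.

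The receptors were divided. Acvr1b, a type I receptor that Nodal and activin use, spans chromosome 15, 101174072 to 101213684, and held 1 lower region within the gene. It measured 200 bp (101188023 to 101188222), the minimum width in both lists, and its midpoint lay 14.1 kb downstream of the start site. The nearest higher region had a gap of 36.6 kb to the gene. Acvr2b, a type II receptor on chromosome 9 at 119401583 to 119442148, had 1 higher region of 591 bp (119388324 to 119388914), which lay 13.6 kb upstream of its start site, inside the xylulokinase gene Xylb. Acvr2a, the other type II receptor (chromosome 2, 48814109 to 48903264), had none although its span of 89.2 kb is longer than both. Its nearest region was a higher one with a gap of 184 kb, and 16.7% of protein-coding genes were farther from a region.

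Smad3 was the member with the most regions, and both were lower. It spans 111 kb of chromosome 9 (63646766 to 63757994) on the minus strand. The wider region, 1158 bp at 63711827 to 63712984, lay inside the gene, 45.6 kb downstream of the start site, and was wider than 92.4% of the lower list. The other, 479 bp at 63636380 to 63636858, lay 10.1 kb beyond the far end of the gene, inside Aagab. Smad3 is also the longest gene of the set, whose median span is 23.5 kb, and longer windows have more room for regions.

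The stretch from Smad3 to Smad6, which encodes an inhibitory Smad, held further lower regions. The gap between these genes is 195 kb. From 20 kb before Smad3 to 20 kb after Smad6 there were 4 lower regions and 1 higher region, where 31.9% of all regions are lower. This stretch was chosen after its regions had been seen, so its count is a description. Beside the 2 of Smad3, a lower region of 421 bp (63880651 to 63881071) lay between the genes, and one of 778 bp (63953226 to 63954003) lay inside Smad6, at its lower-coordinate end and 68.4 kb downstream of its start site. The higher region, of 200 bp (63871799 to 63871998), lay between the genes, 8.65 kb before the 421 bp region.

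**Figure D3:**
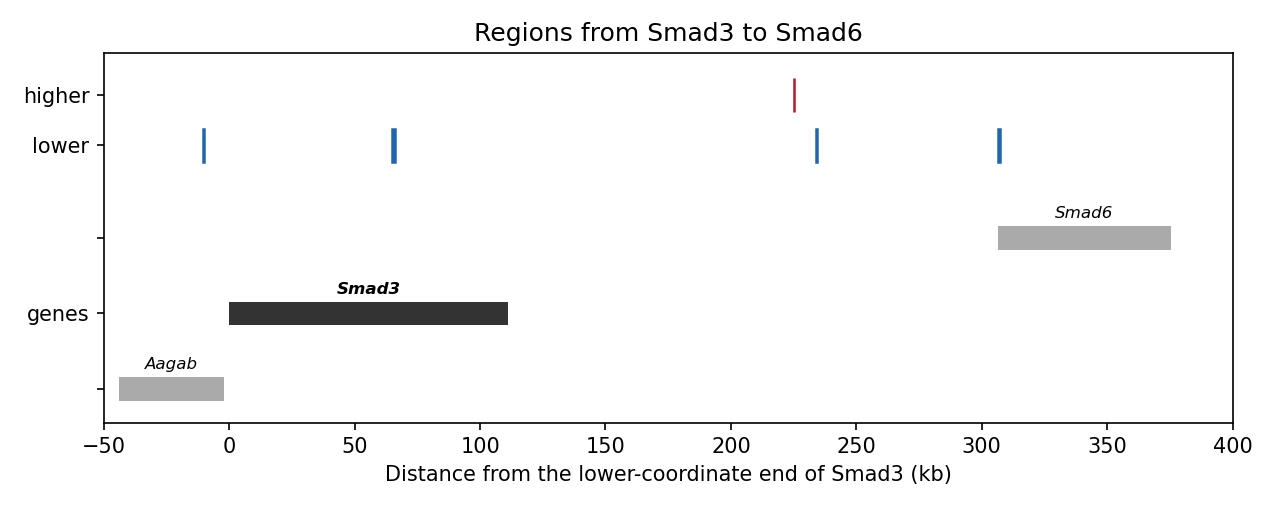
Regions of both lists (upper tracks) and protein-coding genes (lower tracks) from Smad3 to Smad6, to scale apart from a thin outline on each region, by distance in kb from the lower-coordinate end of Smad3. The 4 lower regions are spread over the stretch, and the single higher region lies between the genes.

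Smad2, the other receptor-activated Smad of the pathway, had a region of the opposite list. This higher region of 1250 bp (chromosome 18, 76234653 to 76235902) lay 5.81 kb beyond the lower-coordinate end of the gene (76241090 to 76311748), within the lncRNA gene Gm41778. It was 2.31 times as wide as the median higher region and the widest higher region of the set. Smad2 and Smad3 thus differed in the direction and the place of their regions: lower and partly inside the gene for Smad3, higher and outside for Smad2. No test of this difference was possible, and the regions were assigned to these genes by position alone.

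Foxh1, the forkhead partner of the Smads, lies in a span of 3.79 kb on chromosome 15 (76667829 to 76671614). Its higher region of 318 bp (76655118 to 76655435) lay 12.6 kb away, inside Cyhr1. Within 500 kb of Foxh1 there were 12 higher and 1 lower regions. The median over all protein-coding genes was 4 higher (interquartile range 2 to 6) and 2 lower (1 to 3), and the other 9 genes of the set had 2 to 8 higher and 0 to 6 lower regions.

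**Figure D4:**
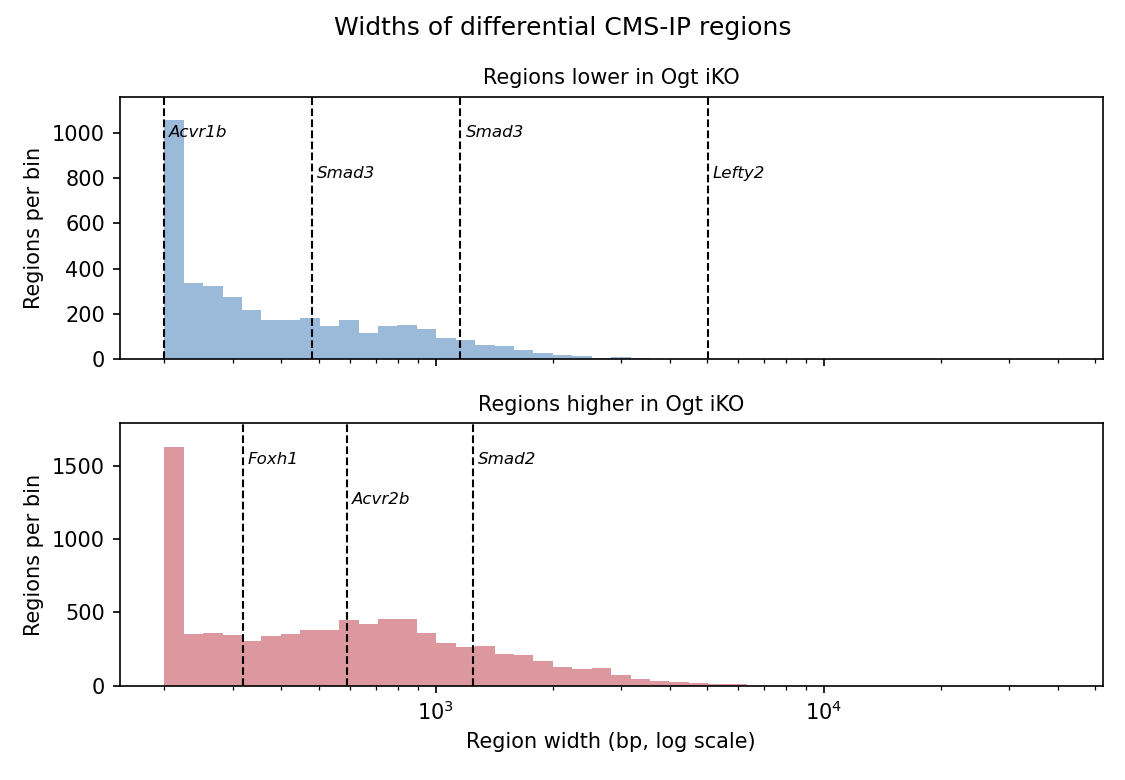
Widths of all regions of the lower list (upper panel, 4016 regions) and the higher list (lower panel, 8578 regions) on a log axis, as counts per bin. Dashed lines mark the regions of the set by gene: the Lefty2 region, at 5017 bp, lies in the far tail of the lower list, while the 3 higher regions, at 318 to 1250 bp, lie within the bulk of theirs.

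The set as a whole showed a wide range of widths. Its 4 lower regions measured 200 to 5017 bp around a list median of 319.5 bp, and its 3 higher regions measured 318 to 1250 bp around a list median of 541.5 bp. The Lefty2 region alone sets the upper end, since the next widest lower region of the set, in Smad3, measured 1158 bp. The extended spans of the 10 genes covered 0.774 Mb and held 5.17 lower and 3.87 higher regions per Mb. The windows of all protein-coding genes held 2.00 and 4.27 per Mb. The densities of the set rest on its 4 lower and 3 higher regions, at genes chosen with the lists in view, and were not tested.

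**Figure D5:**
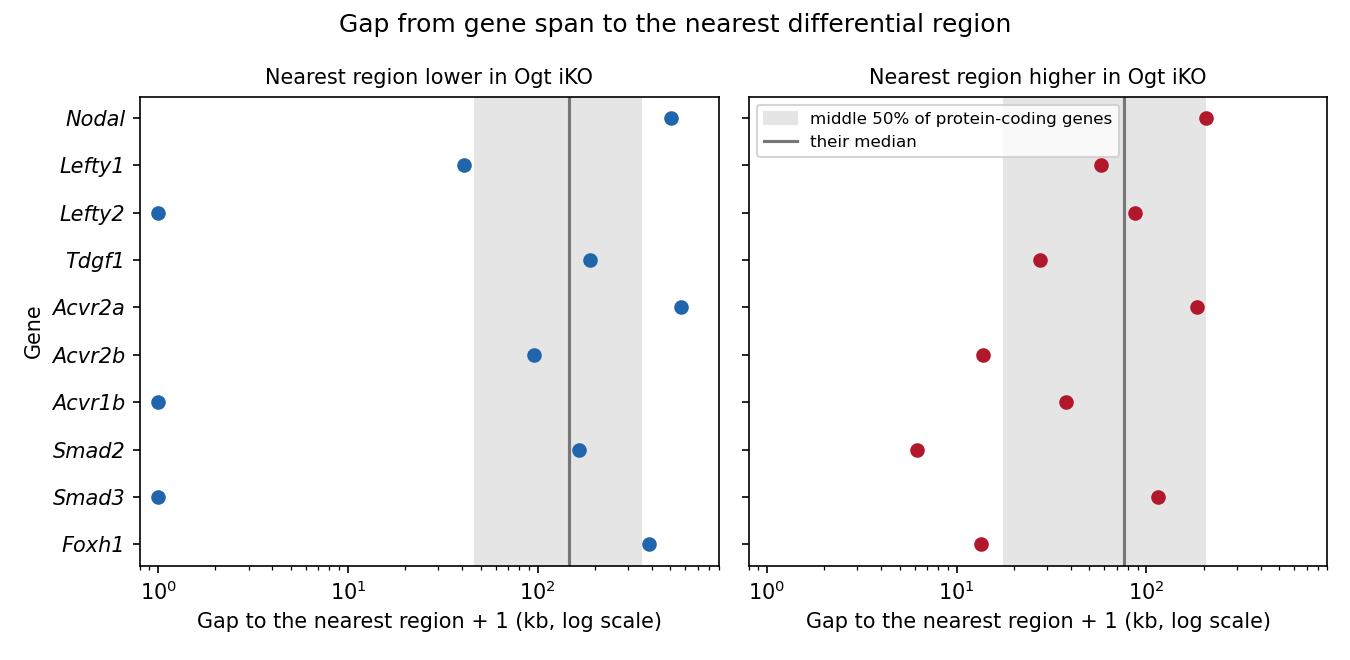
Gap in kb from each gene span to the nearest lower region (left) and the nearest higher region (right), plotted as gap plus 1 on a log axis; the grey band is the middle 50% of protein-coding genes and the line their median. Lefty2, Acvr1b and Smad3 are at a gap of 0 from a lower region, and none of the 10 genes is at 0 from a higher region. Of all protein-coding genes, 80.3% had a gap above 0 to the nearest region of either list. The genes were chosen with the lists in view, so these gaps are a description.

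Other genes of the TGF-beta and Nodal pathway were read from a list of 39. Lower regions were found at 9 of them and higher regions at 11, or 23.1% and 28.2%, beside the 16.1% and 26.4% of all protein-coding genes. A region of either list was found at 18 genes (46.2%, beside 36.2%) and regions of both lists at 2 genes, a state found for 6.35% of all protein-coding genes. No test was made of these shares, and the list was drawn up with earlier results known.

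Among the 6 further ligands, 3 had a lower and 2 a higher region, beside 16.1% and 26.4% of all protein-coding genes. Nothing is read from counts of so few genes. Tgfb1, a ligand of the TGF-beta receptors, held a lower region of 683 bp inside its span (chromosome 7, 25703722 to 25704404), 1.01 kb from the end of the gene. Tgfb2 had 3 higher and 1 lower regions, the widest a higher one of 1306 bp inside the gene. Inhbb, which encodes an activin subunit, had a higher region of 560 bp located 8.54 kb upstream of its start site, and Gdf1, a partner ligand of Nodal, a lower region of 402 bp inside the neighbouring gene Upf1.

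Of 5 further receptor genes, which include the co-receptor Cfc1, only Acvr1c had a region, beside 36.2% of all protein-coding genes. It was a higher region of 200 bp inside the gene. Of 5 Smads and partners, 3 had a region, beside the same 36.2%, and nothing is read from so few genes. Smad6 had the lower region already described. Smad4, the common partner of Smad2 and Smad3, had a higher region of 322 bp located 3.21 kb outside its span. Trim33, a Smad-binding ubiquitin ligase, held a higher region of 844 bp within the gene. Smad7 and Drap1 had none.

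Inhibitors and regulators of the pathway had regions at 5 of 14 genes, or 35.7%, close to the 36.2% of all protein-coding genes. Skil, a repressor of Smad activity, had a lower region of 898 bp at 6.61 kb from its span, and the Smad phosphatase gene Ppm1a a lower region of 402 bp at 3.33 kb. Cer1, a secreted Nodal antagonist, had a higher region of 376 bp at 8.60 kb upstream of its start site, and Dact2 a higher region of 266 bp. Ltbp1, which binds latent TGF-beta and spans 387033 bp, held 2 higher regions and 1 lower region. Of the 2 convertases that process such ligands, Pcsk6 had a region and Furin had none, beside 36.2% of all protein-coding genes with one. The Pcsk6 region was a higher one of 2499 bp inside the gene (chromosome 7, 66038075 to 66040573), wider than 96.0% of the higher list.

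Target genes of the early embryo had regions at 4 of 7 genes, beside the 36.2% of all protein-coding genes, and these 4 regions lay outside the gene spans. Gsc, a homeobox gene of the organizer, had a lower region of 835 bp at 5.04 kb upstream of its start site (chromosome 12, 104477861 to 104478695). The midpoint of this region lay inside the lncRNA gene Gm10000. Eomes, a T-box gene of mesendoderm, had a lower region of 200 bp, 10.7 kb beyond its span. Mixl1 lies 196 kb from Lefty2 on chromosome 1 and had a higher region of 212 bp inside Lin9. Otx2 had a higher region of 236 bp in the lncRNA gene Otx2os1, with a gap of 11835 bp to its own span. The genes T, Foxa2 and Lhx1 had none.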

How the data were processed

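The authors deposited 2 lists of region positions on mm10, 1 for each direction of change; each line gives a chromosome, a start and an end. Bismark and MACS2 are named in the submitters' processing notes, without version or role; the differential test, its threshold and the use of replicates, inputs and spike-ins are not given in the sources used here. The lists spell the knockout OgtiTKO, read here as the Ogt iKO of the labels. Positions were converted to count from 1. The RefSeq gene table of GRCm38.p6 gave the spans; 402 of its 49997 genes, which do not lie on a chromosome sequence, were dropped, and all 10 members and 39 pathway genes were found by symbol; 1 further pathway gene is not reported here. Promoter sequences came from RefSeq, with 6 of 10 members matched; Lefty1, Lefty2, Smad2 and Foxh1 were not. Start sites and strands come from the promoter table.

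No test was made, since the lists hold no value per sample. Members, pathway genes and all rules were chosen with earlier results of these data known. Named genes are all members, pathway genes with a region, and genes at a region's midpoint; a few pathway genes without a region (Cfc1, Smad7, Drap1, Furin, T, Foxa2 and Lhx1) were named as well, outside this rule. Lookups by gene were tested on simulated regions planted at known places. Python 3.11.15, pandas 2.3.3 and numpy 2.4.6 were used.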

Additional observations from a re-analysis of the deposited data

How the results depend on the processing

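Of 46 values recomputed under other settings, 26 stayed within 1.5 times the count, or within the 95% Wilson interval of a share, and 20 moved. This tally depends on the rules and does not measure stability. The interval is narrow for shares over all protein-coding genes, whereas 4 lower regions of the set becoming 6 counted as unmoved. Assigning regions by any overlap of 1 bp moved none. With windows of 10 kb, the set had 1 higher region at 1 gene (Smad2), and with 50 kb it had 6 higher regions at 5 genes; its lower counts stayed within 1.5 times, at 3 and 6 regions, although with 50 kb the wide lower region counts for both Lefty2 and Lefty1. Pathway genes with a higher region numbered 18 with 50 kb and 5 for regions no narrower than the median of 453 bp, and those with a lower region 14 and 4. The share of protein-coding genes with a higher region was 20.9% with 10 kb, 40.5% with 50 kb, 23.7% for regions wider than 200 bp, 17.4% for those no narrower than the median and 20.4% over all annotated genes. For lower regions these shares were 12.5%, 25.9%, 14.0%, 6.72% and 11.9%. A wider window can add regions and a stricter width can only remove them; the cause of the lower shares over all annotated genes was not tested. Around Lefty1 and Lefty2, 2 lower and no higher regions (0) lay within 50 kb, and 4 lower and 3 higher regions within 200 kb. The region inside Acvr1b, at 200 bp, is lost when the narrowest regions are left out. No paired analysis was possible because the lists hold no value per sample, and leaving out a replicate was not possible for the same reason.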

Other observations

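CpG numbers were also read for the promoters that overlapped a region of either list. The 61 promoters that overlapped a lower region had a median of 6 CpG in 300 bases (interquartile range 4 to 12), and the 105 that overlapped a higher region had a median of 5 (4 to 7). The median over all 32851 promoters was 7 (3 to 20), and that over promoters of protein-coding genes 13 (4 to 24). The promoters of Nodal and Tdgf1, with 5 and 7 CpG, overlapped no region. The table holds several promoters for some genes and includes noncoding genes, and no test was made.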
